A study of Mus musculus with 18 samples.

Results

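The interferon gamma-induced GTPases are related families of large GTP-binding proteins, the guanylate-binding proteins (GBPs) and the immunity-related GTPases (IRGs). The set was given as 10 gene names, Gbp2, Gbp3, Gbp5, Gbp7, Gbp8, Gbp9, Irgm1, Irgm2, Igtp and Iigp1, and a gene was taken as measured where an array probe set carried exactly that symbol. That held for 9 of the 10 names among 22180 genes in all, 5 GBPs and 4 IRGs, each on 1 probe set. The probe set of Gbp2 also carries the symbol Gbp2b, so Gbp2 is no measured member, and its values are given apart.

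Expression was measured by array in the ileum of 18 B10.BR mice on day 21 after a transplant of bone marrow from C57Bl/6 donors, a strain of another tissue type. All recipients were 8 to 12 weeks old at transplant, were given 11 Gy of total body irradiation, and received 5000000 T cell-depleted bone marrow cells (TCD-BM). The marrow-only mice received nothing else, whereas the T cell mice also received 2000000 purified donor T cells and develop graft-versus-host disease (GvHD). Each arm was gavaged daily, from the day before transplant, with 150 mg/kg of indole-3-carboxaldehyde (ICA), which gut bacteria make from tryptophan, or with its vehicle of 20% DMSO, 40% PEG400 and 2% citric acid. In each arm 4 mice received vehicle and 5 received ICA. Each mouse was labelled a biological replicate. The series compares the arms to describe what ICA does in GvHD, and the groups include no mouse without irradiation and transplant.

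Interferon gamma, made mainly by activated T cells and natural killer cells, binds a receptor of paired chains and drives genes through gamma-activated sites and, by way of IRF1, through interferon-stimulated response elements. The GBPs and IRGs are among the genes that respond most strongly. They coat and break vacuoles that hold bacteria or parasites, and GBPs also assist inflammasome activation. Irgm1, Irgm2 and Igtp (also called Irgm3) are regulatory IRGs that hold effector IRGs such as Iigp1 inactive on the cell's own membranes. Interferon gamma from donor T cells is a known mediator of intestinal GvHD.

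The genes lie in clusters. In the RefSeq annotation of GRCm38.p6, Gbp5, Gbp7 and Gbp3 follow each other on chromosome 3, Gbp8 and Gbp9 are neighbours on chromosome 5, Igtp and Irgm2 are neighbours on chromosome 11, Irgm1 lies elsewhere on chromosome 11, and Iigp1 is on chromosome 18. Members of a cluster are alike in sequence, and probes of one may also bind transcripts of another, so a difference between close relatives is uncertain.

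The promoters are shown because the members moved together from mouse to mouse, and the letters before their start sites bear on which interferon motifs they share. The table of RefSeq promoters, 250 bases before to 50 after each start site, matched 7 of the 10 names with 8 start sites. It was searched on both strands for TTCNNNGAA, the gamma-activated site, which reads the same on both strands, and for GAAA repeated after a gap of any 2 bases, the core of the interferon-stimulated response element. The response element was present at 7 of the 8 start sites, at least 1 for each of the 7 genes, and in 3.44% of all 32851 promoters. The gamma-activated site was present at 4 of the 8 and in 8.30% of all promoters, and both were present at 4 of the 8 and in 0.454% of all. Gbp8, Gbp9 and Iigp1 were the names not matched, and the 7 matched genes include Gbp2, which is no measured member. A match describes the letters only.

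The bases before the start site of 6 measured members are shown 5′ to 3′ on the gene's strand, 250 bases for Gbp5 and 110 for the others, with matches to either motif in capitals.
Gbp5, chr3:142496684-142496933, plus strand: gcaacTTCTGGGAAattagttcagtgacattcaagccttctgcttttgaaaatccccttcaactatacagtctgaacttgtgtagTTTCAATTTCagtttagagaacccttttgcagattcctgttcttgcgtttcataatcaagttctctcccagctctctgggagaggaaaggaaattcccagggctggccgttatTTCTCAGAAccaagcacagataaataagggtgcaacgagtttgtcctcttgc
Gbp7, chr3:142530226-142530335, plus strand: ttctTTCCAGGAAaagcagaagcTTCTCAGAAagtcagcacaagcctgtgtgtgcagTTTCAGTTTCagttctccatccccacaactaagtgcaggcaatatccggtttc
Gbp3, first start site, chr3:142559934-142560043, plus strand: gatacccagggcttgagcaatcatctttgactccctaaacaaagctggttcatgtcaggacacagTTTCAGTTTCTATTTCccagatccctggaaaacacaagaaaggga
Igtp, chr11:58199446-58199555, plus strand: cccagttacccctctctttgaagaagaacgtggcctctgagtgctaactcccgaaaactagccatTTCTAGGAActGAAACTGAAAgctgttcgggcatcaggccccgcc
Irgm2, chr11:58214867-58214976, plus strand: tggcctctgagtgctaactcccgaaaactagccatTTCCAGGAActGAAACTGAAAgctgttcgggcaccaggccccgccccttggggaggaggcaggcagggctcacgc
Irgm1, chr11:48871421-48871530, minus strand: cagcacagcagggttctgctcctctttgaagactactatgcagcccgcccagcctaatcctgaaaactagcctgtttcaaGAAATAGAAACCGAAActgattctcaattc

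Igtp and Irgm2 carried a gamma-activated site followed within a few bases by a response element. Within the windows shown, 2 runs of 38 and 29 bases in that stretch are identical between both genes. The longer run starts at the first base shown for Irgm2, so its full length is not given. Gbp5 and Gbp7 each carried 2 gamma-activated sites and a response element on the opposite strand. Irgm1 and the first start site of Gbp3 carried 2 overlapping response elements and no gamma-activated site in this window.

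The arrays were alike in scale, with medians of 6.47 to 6.51 in log2 and correlations between arrays, across genes, of 0.978 to 0.993. Mouse 1 of the marrow-only ICA group and mouse 1 of the T cell ICA group stood farthest from the other mice of their groups, with 1448 and 1925 genes off their mean by over 0.5, and the other 16 arrays had 414 to 1037 such genes. Results are also given without 3 arrays, those and marrow-only vehicle mouse 3, which with 952 was the farthest of its own group only. The ileal markers Fabp6 and Slc10a2 were high in every mouse (11.81 to 12.71 and 10.27 to 11.08), and the stomach marker Gkn1 and the pancreatic marker Prss2 stayed between 4.96 and 6.28. Car1, a colonic carbonic anhydrase, ranged from 4.75 to 12.04. It ran from 5.32 to 10.31 in T cell ICA mice and from 5.17 to 8.94 in T cell vehicle mice, and was highest in marrow-only ICA mouse 3. That mouse also had the highest Aqp8, another colonic gene (7.21, median 5.62 over the mice), and the lowest mean of the 11 ileal markers (11.33).

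The levels of all 9 GTPases differed more between mice of a group than between the groups. A log2 value is the level on that gene's own probe set, so levels are compared between mice and not between genes, and a difference of 1 is 2-fold. Marrow-only mice given vehicle had the lowest mean of the 4 groups for 8 of the 9 genes, the exception being Irgm2. In every gene the ranges of all 3 neighbouring pairs of groups, ordered by mean, overlapped. The share of the variation between mice that lay between groups was from 11.1% for Gbp7 to 40.1% for Gbp9, beside a median of 21.1% over all genes.

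**Figure D1:**
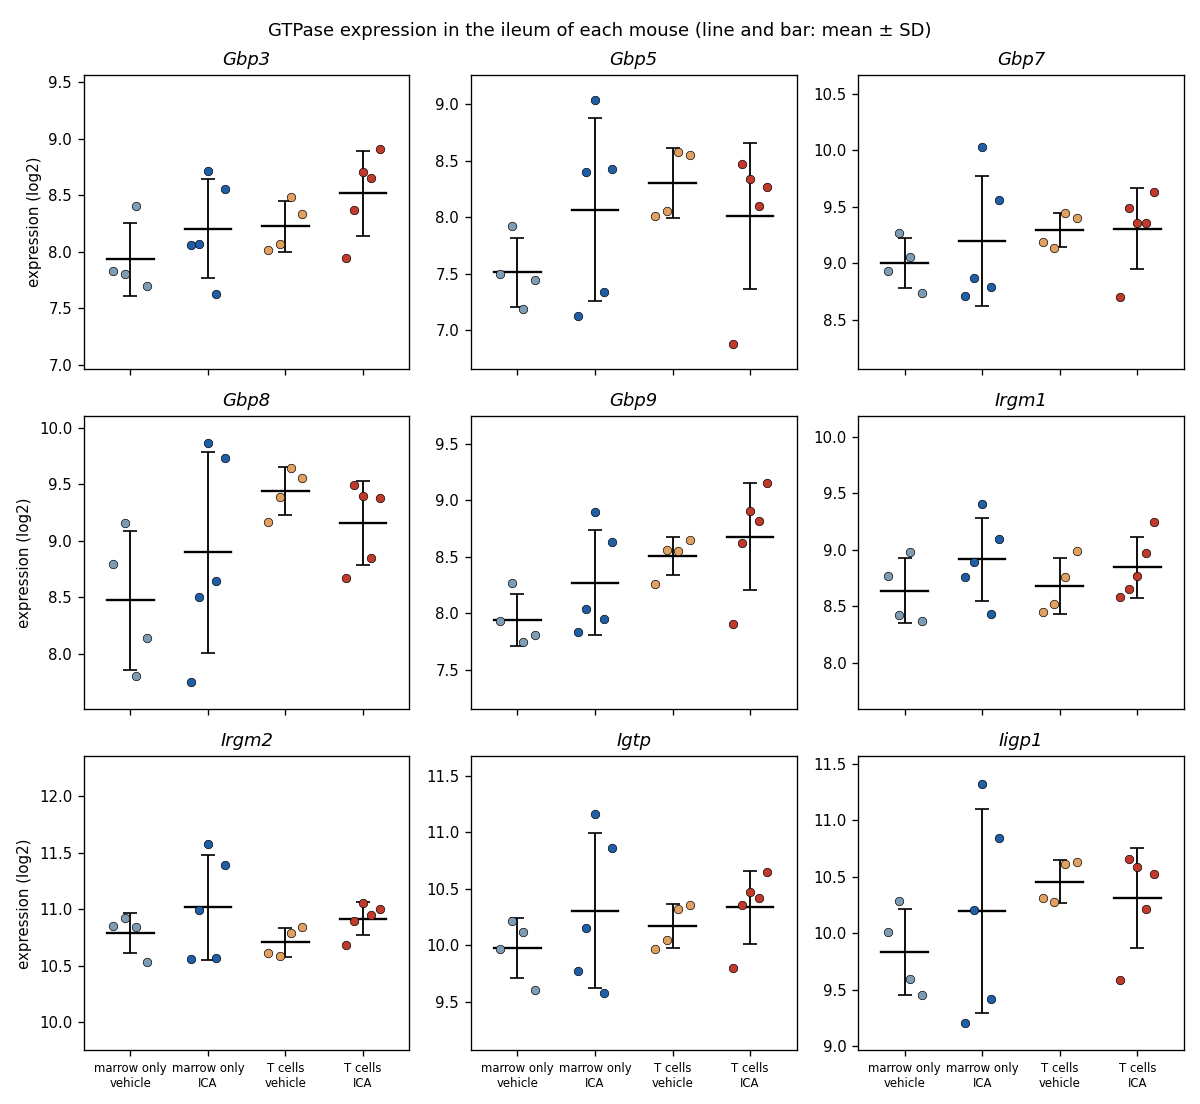
Expression of the 9 measured GTPases in log2 (vertical axis, all panels spanning the same range of log2) in each mouse of the 4 groups (points), with the group mean and SD (line and bar). In 8 of the 9 panels the points of marrow-only mice given ICA are spread most widely, with an SD of 0.90 for Iigp1 against 0.19 in T cell mice given vehicle; in Gbp9 their SD equals that of T cell mice given ICA, at 0.47.

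Under vehicle, the mice with donor T cells were set against those with marrow only (4 against 4). The GBPs lay higher with T cells, by 0.29 to 0.96, and the 3 regulatory IRGs by -0.08 to 0.20. None of the 9 passed at an adjusted p under 0.05 in the limma model of all 18 arrays, against 1.47% of all genes, and 3 of the 9 had an unadjusted p under 0.05 and a positive difference, against 7.58% of all genes. Those 3 were Gbp5, Gbp8 and Gbp9. The median difference was 0.29 beside 0.01 over all genes, and 8 of the 9 were above 0, against 51.9%. With 1 mouse left out the median ran from 0.22 (without marrow-only vehicle mouse 4) to 0.45 (without marrow-only vehicle mouse 3). Without that mouse 3, 0 of the 9 had an unadjusted p under 0.05 in limma. The differences of Gbp5, Gbp8 and Gbp9 were then 0.68, 0.74 and 0.50.

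Gbp5, which promotes assembly of the NLRP3 inflammasome, measured 7.50, 7.93, 7.19 and 7.44 in the marrow-only mice given vehicle and 8.01, 8.06, 8.58 and 8.55 in the T cell mice given vehicle. Every T cell mouse was above every marrow-only mouse, the nearest values being 8.01 and 7.93, a separation in that direction that 6.33% of all genes showed. The means were 7.51 ± 0.31 (SD, n = 4) and 8.30 ± 0.31 (SD, n = 4), a difference of 0.79 ± 0.35 (SE) or 1.72-fold (limma adjusted p = 0.337).

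Gbp8, a GBP of the chromosome 5 cluster, measured 8.79, 9.16, 7.80 and 8.13 in the marrow-only mice given vehicle and 9.16, 9.39, 9.64 and 9.56 in the T cell mice given vehicle. The groups were separate, but the highest marrow-only mouse and the lowest T cell mouse were equal to 2 decimals. The means were 8.47 ± 0.62 (SD, n = 4) and 9.44 ± 0.21 (SD, n = 4), a difference of 0.96 ± 0.36 (SE) or 1.95-fold (limma adjusted p = 0.209).

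Gbp9, the neighbour of Gbp8, measured 7.93, 8.27, 7.75 and 7.81 without T cells and 8.26, 8.56, 8.55 and 8.65 with them. The groups overlapped only at 8.27 without T cells and 8.26 with them. The difference was 0.57 ± 0.23 (SE), with a 95% interval of 0.09 to 1.05 (limma adjusted p = 0.272).

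Among the IRGs, the effector Iigp1, which coats parasite vacuoles, measured 10.01, 10.29, 9.60 and 9.45 without T cells and 10.31, 10.28, 10.61 and 10.63 with them, overlapping at 1 mouse. Its difference of 0.62 ± 0.34 (SE) did not pass (limma adjusted p = 0.470). The regulatory IRGs stood closer to 0, at 0.20 ± 0.26 (SE) for Igtp, 0.04 ± 0.18 (SE) for Irgm1 and -0.08 ± 0.17 (SE) for Irgm2. Gbp3 and Gbp7, both GBPs of chromosome 3, differed by 0.29 ± 0.22 (SE) and 0.29 ± 0.23 (SE).

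The calls depended on which mice entered the model. In a limma model of the 8 vehicle mice alone, Gbp5 (adjusted p = 0.0239), Gbp8 (adjusted p = 0.0433) and Gbp9 (adjusted p = 0.0222) passed, against 2.30% of all genes in that direction, and Iigp1 did not (adjusted p = 0.0515). The standard error of Gbp5 was 0.16 in that model and 0.35 in the model of all mice. Those calls rested on single mice. No member passed without marrow-only vehicle mouse 1 or 4, or without T cell vehicle mouse 3 or 4, and only Gbp5 passed without T cell vehicle mouse 2. Without T cell vehicle mouse 1 the same 3 passed, without marrow-only mouse 2 Iigp1 passed too (4 in all), and without marrow-only mouse 3 they were Gbp3, Gbp5 and Gbp9.

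**Figure D2:**
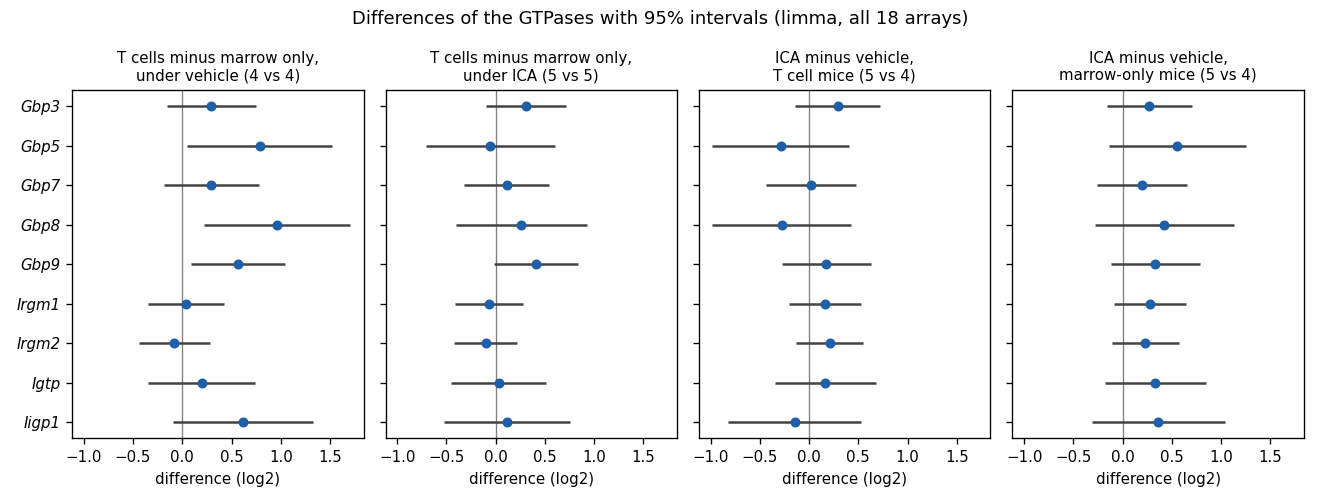
Differences in log2 with their 95% intervals (horizontal axis) for the 9 GTPases, from the limma model of all 18 arrays. The comparisons of the design are shown except the interaction. The intervals of Gbp5, Gbp8 and Gbp9 for T cells in vehicle-treated mice lie above 0, and no gene passed the adjusted threshold.

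Most markers of T cells (7 of 8) and of macrophages (9 of 11) were also higher with T cells. Of the T cell markers, 4 of 8 measured rose (Cd3e, Cd3g, Cd8a and Cd8b1), where 1.47% of all genes were called in either direction. Cd4 lay lower with T cells, at a mean of 6.85 against 7.01. Under vehicle, the mean of the T cell list lay between 6.65 and 7.20 in marrow-only mice and between 7.61 and 8.53 in T cell mice. The macrophage list had 4 of 11 rise (8.05 to 8.37 against 8.52 to 8.95), the natural killer list 1 of 6 (Nkg7; 5.94 to 6.12 against 6.07 to 6.54) and the neutrophil list 1 of 8 (Retnlg; 5.81 to 6.30 against 6.21 to 7.12). Of the natural killer markers 4 lay above 0 and 2 below, with 1 higher and 1 lower at an unadjusted p under 0.05 in limma. Cd14, of the macrophage list, lay lower with T cells, at a mean of 7.88 against 8.09. In bulk tissue fewer cells of a type and less RNA per cell cannot be told apart, and the part of these cells in the GTPase levels was not tested. The B cell list had 3 of 7 fall, and the ileal, muscle, endothelial and off-tissue lists had none called. However, 6 of 7 muscle markers were higher at an unadjusted p under 0.05 in limma, against 7.58% of all genes.

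The second comparison asks the same of mice given ICA (5 against 5). None of the 9 GTPases passed, against 3.12% of all genes, and none had an unadjusted p under 0.05 in limma, against 16.6%. The differences ran from -0.10 for Irgm2 to 0.41 ± 0.21 (SE) for Gbp9 (limma adjusted p = 0.334), with 6 of 9 above 0, against 47.6% of all genes, and a median of 0.11 beside -0.01 over all genes. Gbp5 differed by -0.06 ± 0.31 (SE), Gbp8 by 0.26 ± 0.32 (SE) and Iigp1 by 0.11 ± 0.31 (SE). The groups overlapped in all 9 genes. The T cell marker list lay between 6.79 and 7.76 in the marrow-only ICA mice and between 7.56 and 8.34 in the T cell ICA mice, with Cd8a and Cd8b1 called higher and Cd4 called lower. Of the other markers, 6 of 7 of muscle, 2 of 11 of macrophages and 2 of 7 of endothelium rose, and 3 of 7 of B cells and 1 of 9 off-tissue genes (Cr2, of follicular B cells) fell. Their part in the GTPase values was not tested.

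In Gbp5 the marrow-only mice given ICA measured 7.13, 8.40, 9.04, 7.34 and 8.43, and the T cell mice given ICA 6.88, 8.47, 8.34, 8.10 and 8.27. T cell mouse 1 lay below all the marrow-only mice, and the other 4 lay among them. The comparison moved with single mice. The median difference of the 9 was -0.10 without marrow-only ICA mouse 1 and 0.32 without marrow-only ICA mouse 3, and 0.049 without the 3 arrays named above.

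The third comparison asks what ICA changed in mice with T cells (5 against 4). None of the 9 GTPases passed, against 0.0135% of all genes, and none had an unadjusted p under 0.05 in limma, against 6.89%. The differences ran from -0.29 ± 0.33 (SE) for Gbp5 to 0.29 ± 0.21 (SE) for Gbp3, with 6 of 9 above 0, against 46.6% of all genes, and a median of 0.16 beside -0.01 over all genes. Gbp8 differed by -0.28 ± 0.34 (SE), with a 95% interval of -0.98 to 0.42.

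Single mice moved this comparison both ways. T cell ICA mouse 1 was the lowest of its group in all 9 GTPases, and without it the difference of Gbp5 was -0.0058, that of Gbp3 was 0.43 and the median was 0.23. Without T cell ICA mouse 5, the highest of its group in 5 of 9, the median was 0.057. No gene of the marker lists was called for ICA in either arm.

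The fourth comparison asks what ICA changed in marrow-only mice (5 against 4). All 9 differences were above 0, against 53.5% of all genes, with a median of 0.33 beside 0.01. Markers of several immune cell types lay the same way without a call. These were 7 of 8 of T cells (median 0.39, 3 at an unadjusted p under 0.05 in limma) and 11 of 11 of macrophages (median 0.27). So did 8 of 8 of neutrophils (median 0.20) and 6 of 7 of B cells (median 0.14). Natural killer markers were split, with 3 above 0 and 3 below (median 0.08). Of the ileal markers, 9 of 11 lay below 0 (2 at that level). Their part in the GTPase differences was not tested. None of the 9 passed, against 0.00451% of all genes, and none had an unadjusted p under 0.05 in limma, against 7.52%. The values ran from 0.20 ± 0.22 (SE) for Gbp7 to 0.55 ± 0.33 (SE) for Gbp5 (limma adjusted p = 0.712). Iigp1 differed by 0.36 ± 0.32 (SE) and Igtp by 0.33 ± 0.25 (SE).

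Marrow-only ICA mice 3 and 5 held the highest values of their group in every member. Igtp measured 9.97, 10.21, 10.11 and 9.60 with vehicle and 9.77, 10.15, 11.16, 9.58 and 10.86 with ICA, so that 2 mice were high and 3 lay within or just below the vehicle range. Iigp1 measured 9.21, 10.20, 11.32, 9.42 and 10.84 with ICA, again with mice 3 and 5 high and mice 1 and 4 low. Without mouse 3 the median difference was 0.15 and that of Gbp7 was -0.014, whereas without the 3 arrays named above the median was 0.47.

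The difference between the effects of ICA in the 2 arms was tested as an interaction. None of the 9 passed, and no gene did (0 of 22180). None of the 9 had an unadjusted p under 0.05 in limma, against 6.68% of all genes. Gbp5 stood lowest at -0.84 ± 0.47 (SE; limma adjusted p = 0.780), then Gbp8 at -0.70 ± 0.48 (SE) and Iigp1 at -0.51 ± 0.46 (SE), and the other 6 lay between -0.18 and 0.02, with 1 of 9 above 0, against 44.8% of all genes. These comparisons share groups of mice, so their values are not independent of each other.

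Gbp2, through the probe set it shares with Gbp2b, measured 9.55, 10.06, 9.26 and 9.37 in marrow-only vehicle mice and 10.10, 9.94, 10.41 and 10.34 in T cell vehicle mice. The groups overlapped, and the difference of 0.64 ± 0.35 (SE) did not pass (limma adjusted p = 0.476). In marrow-only mice given ICA it measured 8.93, 10.08, 11.11, 9.14 and 10.56, with mice 3 and 5 high as in the members.

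Variation between mice was widest in the marrow-only mice given ICA for most members. In the other groups the rank of the SD among all genes differed by member. With T cells and vehicle it ran from the percentile 51.17 (Irgm2) to 94.05 (Gbp5), and with T cells and ICA from 40.44 (Irgm2) to 99.54 (Gbp5). With marrow only and vehicle it ran from 69.58 (Irgm2) to 99.54 (Gbp8). In marrow-only mice given ICA the SD was 0.37 for Irgm1 and 0.90 for Iigp1, with the other genes between, beside a median of 0.159 over all genes, and each of the 9 SDs exceeded those of at least 94.88% of genes in that group. Marrow-only ICA mouse 3 was the highest of its group in 9 of 9 genes, and mouse 1 the lowest in 6. The mean of the 9 genes per mouse was 9.23 ± 0.60 (SD, n = 5) with marrow only and ICA and 8.90 ± 0.21 (SD, n = 4) with marrow only and vehicle. With T cells it was 9.31 ± 0.19 (SD, n = 4) under vehicle and 9.34 ± 0.35 (SD, n = 5) under ICA.

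The mice that were high or low were so in most members. After subtracting group means, the correlation between pairs of GTPases over 18 arrays was 0.37 to 0.97 with a median of 0.81 over 36 pairs. These are descriptions of genes measured on the same arrays, and relatives may share probes. The mouse with the highest GTPases, marrow-only ICA mouse 3, also had the highest Car1 (12.04) and Aqp8 (7.21) and the lowest ileal marker mean (11.33). The mean of the off-tissue list was also highest in that mouse (6.63). Next came T cell ICA mouse 1 (6.34), the lowest of its group in all 9 GTPases. Car1 also varied among T cell mice. It ran up to 10.31 with ICA (7.32 ± 2.30, SD, n = 5) and up to 8.94 with vehicle (6.44 ± 1.70, SD, n = 4). The part of the tissue sampled in the GTPase levels was not tested.

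**Figure D3:**
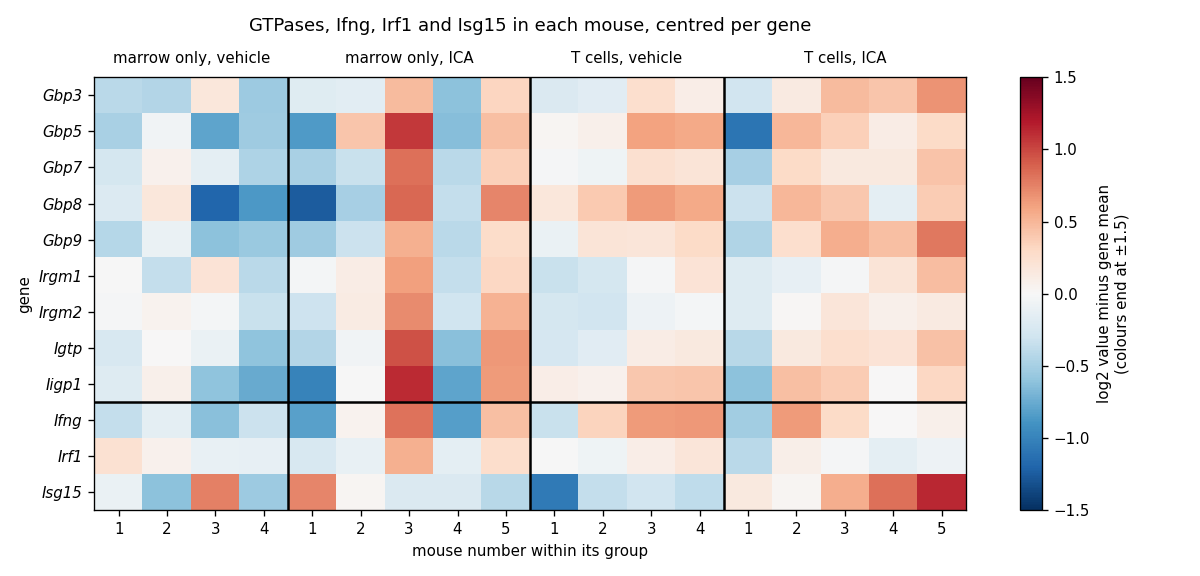
Each mouse (columns, by group) and each GTPase, with Ifng, Irf1 and Isg15 below them (rows), as the log2 difference from that gene's mean over the 18 arrays (colour). Marrow-only ICA mice 3 and 5 are high across the GTPase rows, and T cell ICA mouse 1 is low across them.

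Ifng, the gene of interferon gamma, followed the same mice. It measured 5.74, 5.94, 5.47 and 5.77 in marrow-only vehicle mice, 5.27, 6.14, 6.91, 5.27 and 6.54 in marrow-only ICA mice, 5.76, 6.43, 6.73 and 6.75 in T cell vehicle mice and 5.57, 6.73, 6.38, 6.10 and 6.17 in T cell ICA mice. Marrow-only ICA mouse 3 was again the highest of all, and T cell ICA mouse 1 was again the lowest of its group. With T cells in vehicle mice Ifng differed by 0.69 ± 0.31 (SE; limma adjusted p = 0.341). The Ifng signal was low, from 5.27 to 6.91 with a median of 6.12, and its mean stood at the percentile 35.74 of all genes. Of the markers of tissues not sampled, Gkn1 had a median of 6.05 and the percentile 33.86. Prss2 was lower, with a median of 5.33 and the percentile 19.85. The part of background signal in the Ifng values was not tested.

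Ifng, Irf1 and Isg15 were set against the 9 GTPases over 18 mice (27 relations, genes chosen after the likeness below was seen). Ifng correlated with Gbp5 at Pearson's r = 0.92 and Spearman's rho = 0.94 (permutation p = 1e-05, the smallest they can give; adjusted p = 9e-05), and r was 0.91 without the 2 mice farthest from the median of Ifng and 0.92 within groups. Iigp1 followed at r = 0.91 and rho = 0.90 (permutation p = 1e-05, adjusted p = 9e-05), with 0.87 without the 2 farthest mice. Of the 9, 8 passed for Pearson's r and 7 for Spearman's rho at an adjusted permutation p under 0.05, the weakest being Irgm1 (r = 0.46, rho = 0.46, permutation p = 0.0530, adjusted p = 0.0794). Over the set, r was 0.54 to 0.92 within groups, 0.58 to 0.91 without the 3 arrays named above and 0.42 to 0.91 without the 2 farthest mice. The within-group values pool the 4 groups and have no p. The permutations exchanged mice across the groups, so their p-values also take in differences between groups. Ifng, Irf1 and Isg15 were chosen from these same arrays, and the adjustment covers only the 27 relations. The p-values for all 3 genes are therefore no independent test of a relation. In the 4 marrow-only vehicle mice alone Ifng ran against Gbp3 (r = -0.86) and Irgm1 (r = -0.85), and r was 0.0044 for Igtp and 0.054 for Irgm2. In the 5 marrow-only ICA mice r was 0.87 or above for every member. These values within 4 or 5 mice are descriptions.

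**Figure D4:**
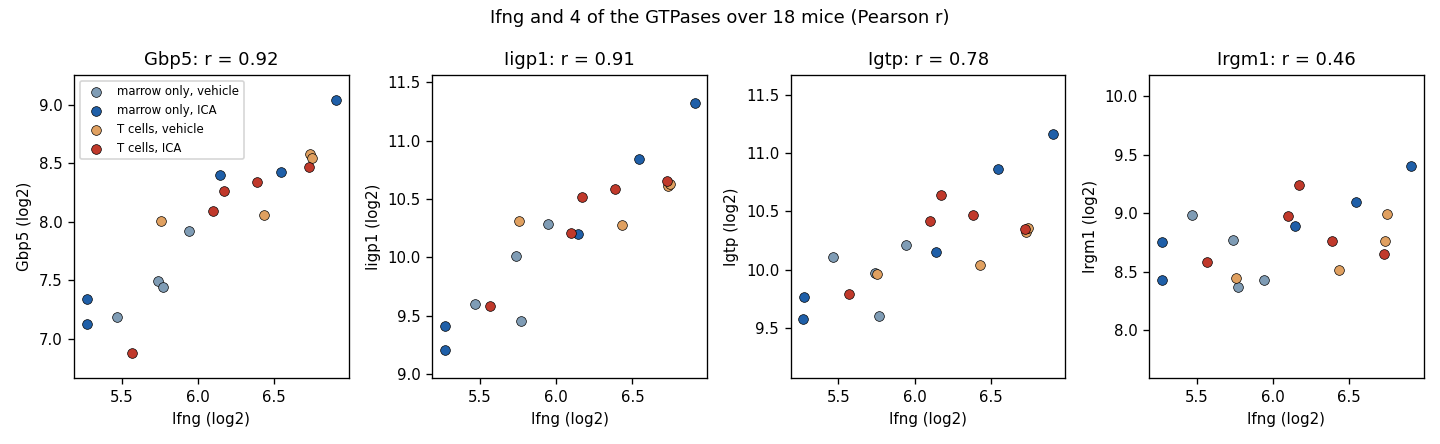
Ifng (horizontal axis, log2) against Gbp5, Iigp1, Igtp and Irgm1 (vertical axis, log2), 1 point per mouse coloured by group. Points rise together in every group for Gbp5, where r is 0.92 over the 18 mice.

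Irf1, the factor that binds interferon response elements, correlated with the members at r = 0.34 to 0.78, of which 6 of 9 passed for r and 5 for rho at an adjusted permutation p under 0.05. Without the 2 farthest mice r was 0.11 to 0.68, so that part of the relation rested on them, and within groups it was 0.59 to 0.92. Isg15, a gene of the type I interferon response, gave r = -0.32 to 0.52, with 1 of 9 passing for r (Gbp3, adjusted permutation p = 0.0491) and 0 for rho, and r for Gbp3 was 0.29 without the 2 farthest mice. Without the 3 arrays named above, r for Isg15 was 0.021 to 0.63, above 0 for all 9 members.

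Other genes followed the mean of the GTPases over 18 arrays. After subtracting group means the most alike were F830016B08Rik at r = 0.96 and Gm4951 at 0.96, 2 further IRG genes, then Gbp10 at 0.95, Cd274, the gene of PD-L1, at 0.95, Nudt5 at 0.94, Gbp11 at 0.93, Mcpt2 at 0.93, Cenpa at 0.93, Ndc1 at 0.93 and Samhd1 at 0.93. Mcpt2, a mast cell protease, was at 0.38 without that subtraction. Over all arrays the list also held Arhgap8 (0.92), Psmb9 (0.92), Apol6 (0.92), Gbp4 (0.91) and Sectm1a (0.90). Ifngr1 and Ifngr2, the receptor chains, stood apart at -0.45 and -0.46 within groups, and Mx2 and Isg15 at -0.16 and -0.08. These are descriptions with no test.

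The other genes of the pathway were counted from lists. For T cells in vehicle mice none of the 5 other measured GBPs and none of the 8 other IRGs passed, Gbp11 at 1.14 ± 0.44 (SE; limma adjusted p = 0.241), Gbp4 at 0.92 ± 0.40 (SE), 9930111J21Rik2 at 0.70 ± 0.22 (SE) and Gm4951 at 0.93 ± 0.38 (SE). None of the 5 ligand and receptor genes passed. Of the 12 genes that induce or make interferon gamma, Il18, an inducing cytokine, fell by 1.25 ± 0.25 (SE; limma adjusted p = 0.0129), and none rose. Of 23 other targets of interferon gamma, Casp4, an inflammatory caspase, fell by 0.50 ± 0.12 (SE; limma adjusted p = 0.0412), and none rose. Of 15 factors and regulators none passed, with Ciita, which drives MHC class II, at 0.45 ± 0.16 (SE) and Socs3, a feedback inhibitor, at -0.60 ± 0.23 (SE). None of 18 type I interferon genes and none of 18 vacuole partners passed. At an unadjusted p under 0.05 in limma, 2 other GBPs, 2 other IRGs, 1 ligand or receptor gene and 2 vacuole partners were higher. At that level 1 regulator was higher and 1 lower, and 2 type I genes were lower. Of all genes 13.0% had such a p in either direction. In the same terms 6 of the 12 inducers were higher and 1 lower, and 7 of the 23 targets were higher and 2 lower.

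With ICA in both arms, 8 genes of these lists were called between T cell and marrow-only mice, where 3.12% of all genes were called against 1.47% under vehicle, and the interaction called none of them. Il18 fell by 1.65 ± 0.22 (SE; limma adjusted p = 0.000342) and Eomes, a T-box factor of cytotoxic cells, rose by 0.68 ± 0.15 (SE; limma adjusted p = 0.0115). Nos2, the inducible nitric oxide synthase, fell by 1.92 ± 0.28 (SE; limma adjusted p = 0.000601) and Casp4 fell by 0.55 ± 0.11 (SE; limma adjusted p = 0.0063), the 2 called of 23 targets. Socs3 fell by 1.38 ± 0.21 (SE; limma adjusted p = 0.00064) and Stat3 fell by 0.28 ± 0.06 (SE; limma adjusted p = 0.0142), the 2 called of 15 regulators. 9930111J21Rik2, 1 of 8 other IRGs, rose by 0.87 ± 0.20 (SE; limma adjusted p = 0.0183), and Cmpk2, the 1 called of 18 type I genes, rose by 0.83 ± 0.21 (SE; limma adjusted p = 0.0364). The other GBPs, the ligand and receptors, and the vacuole partners had none called. At an unadjusted p under 0.05 in limma they had 0, 1 (higher) and 2 (both lower) genes. Of the 18 type I genes, 12 were higher at that level, and 16.6% of all genes had such a p in either direction.

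For ICA against vehicle no gene of the 8 lists was called in either arm by limma. In T cell mice all 18 type I genes were higher with ICA and 17 had an unadjusted p under 0.05 in limma, against 3.06% of all genes in that direction, with a median of 0.97 and no gene called. Mx2 differed by 1.35 ± 0.26 (SE; limma adjusted p = 0.125), Herc6 by 0.90 ± 0.20 (SE) and Isg15 by 1.06 ± 0.27 (SE), while the median of the GTPases was 0.16. In the interaction all 18 type I genes were above 0, with a median of 0.77 beside -0.17 for the GTPases. Of the type I genes, 13 had an unadjusted p under 0.05 in limma there, against 6.68% of all genes in either direction, and none was called. Under vehicle, 15 of the 18 were lower in T cell than in marrow-only mice, with a median of -0.32. The T cell vehicle group enters both the ICA comparison in T cell mice and the interaction. Of the other 7 lists in T cell mice, 2 other IRGs were higher and 1 inducer lower at an unadjusted p under 0.05 in limma. At that level 3 regulators were higher and 1 lower, and 1 target was higher and 2 lower. Of all genes 6.89% had such a p in either direction. In marrow-only mice all 23 other targets of interferon gamma lay above 0 with ICA, with a median of 0.17, and Psmb8, an immunoproteasome subunit, differed by 0.40 ± 0.13 (SE). There 1 other GBP, 3 inducers, 2 regulators, 4 targets, 1 type I gene and 1 vacuole partner had an unadjusted p under 0.05 in limma. All of these were higher with ICA, and 7.52% of all genes had such a p in either direction.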

How the data were processed

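Ileal total RNA was hybridised to Affymetrix whole-transcript arrays, 1 for each of 18 mice, per the labels' protocols. The deposited table holds log2 values made by the authors with RMA. Partek, GenomeStudio and RMA are named, without versions, per the submitters' processing notes. The log base was taken from the range of the values, since it is not given in the sources used here. No filter or further normalisation was applied, and the number of arrays limits the precision.

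Of 41345 probe sets, 23521 carried 1 platform symbol, 1814 several and 16010 none. A gene took the 1-symbol probe set with the highest mean, which gave 22180 genes. In R 4.3.3, limma 3.58.1 fitted 1 mean per group over all 18 arrays with a trended prior, and two-sided p-values were adjusted by Benjamini-Hochberg over all genes. A gene was called at an adjusted p under 0.05. The code was tested on simulated data. Correlations used 100000 permutations in scipy 1.17.1, two-sided, which exchanged all 18 mice without regard to group.

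The members and gene lists were chosen with earlier results of these data known. All measured members are named. From each list the text names up to 3 called genes with the largest difference, or up to 2 with the smallest p where none was called, beside a few set genes such as Ifng, Irf1, Mx2 and Isg15, and the 10 genes most like the members. Alternatives were a replicate block, quantile normalisation, median centring, a filter on low means, averaged probe sets, other prior variances, array weights, models of 2 groups and leaving out each mouse. Leaving out 3 arrays together was chosen after seeing the data. Promoters came from RefSeq on GRCm38.p6. Protein sequences were not used here.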

Additional observations from a re-analysis of the deposited data

Results flagged for a closer look

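In T cell mice given ICA, Gbp5 in mouse 1 measured 6.88 in log2, far below the next lowest mouse at 8.10. The gap was 0.763 of the group's whole range, above the critical value of 0.71 for 5 samples. This was 1 of 36 combinations of a member and a group that were looked at, and chance marks about 1 group in 20. The same mouse was the lowest of its group in all 9 GTPases, and its array had the most genes (1925) off its group's mean by over 0.5.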

How the results depend on the processing

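No member was called in any of the 5 comparisons under any alternative, except in the model of only the 2 vehicle groups, which called 3 (Gbp5, Gbp8 and Gbp9). Of 1251 alternative values of member differences, 1199 kept their direction and side of the threshold, 3 passed and 49 changed sign, 43 of these with 1 mouse left out; the differences that changed sign were never called. With array weights Gbp5 for T cells with ICA was 0.089. With the replicate block, Gbp7 for ICA with T cells was -0.071. Replicate numbers did not pair the mice (same-number correlations of deviations -0.14 to 0.20), and the block called 0 members in all comparisons. Without the 3 arrays left out together (mouse 1 of both ICA groups and mouse 3 of the marrow-only vehicle group), Iigp1 for ICA with T cells was 0.037 and the Gbp3 interaction was -0.034. The Irgm2 interaction was 0.017 after quantile normalisation and 0.000509 after median centring. With 1 mouse left out, T cells with vehicle ranged from -0.063 to 0.16 for Irgm1. T cells with ICA ranged from -0.29 to 0.23 for Gbp5, -0.0063 to 0.32 for Gbp7, -0.025 to 0.50 for Gbp8, -0.19 to 0.051 for Irgm1, -0.22 to 0.038 for Irgm2, -0.15 to 0.24 for Igtp and -0.13 to 0.40 for Iigp1, and the median from -0.10 to 0.32. ICA with T cells had a median of 0.057 to 0.23 (0.056 with the replicate block, 0.16 without it) and ranged from -0.067 to 0.17 for Gbp7 and -0.23 to 0.037 for Iigp1. ICA with marrow only ranged from -0.014 to 0.32 for Gbp7. The interaction ranged from -0.14 to 0.16 for Gbp3, -0.30 to 0.029 for Gbp7, -0.28 to 0.035 for Gbp9, -0.23 to 0.010 for Irgm1, -0.14 to 0.12 for Irgm2 and -0.35 to 0.046 for Igtp, and the median from -0.30 to 0.01. The cause of these moves was not tested. The number of genes called for T cells with vehicle was 327, against 824 in the model of 2 groups, 1074 with array weights and 664 without the 3 arrays, and 94 (without marrow-only vehicle mouse 4) to 515 with 1 mouse left out. For T cells with ICA it was 693, against 321, 1049 and 1515 in that order, and 378 (without marrow-only ICA mouse 5) to 1373 (without mouse 1). For ICA with T cells it was 3, against 49, 13 and 39, and 1 to 9 with 1 mouse left out. For ICA with marrow only it was 1, against 0, 1 and 9, and 0 to 119 (without marrow-only ICA mouse 1). For the interaction it was 0, and 3 without the 3 arrays. The exact permutation test of single genes was not run, since the model tests each member. With 4 or 5 mice a group, the intervals of the 9 genes are wide.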
